A study of Mus musculus with 6 samples.

Results

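The 32 genes described here encode the chaperones of the endoplasmic reticulum (ER) and the sensors, degradation factors and translocation factors of the unfolded protein response. They were listed by name, with earlier results of these data known. Each was represented by the probe set with the highest mean among those assigned to that gene alone, and all 32 were measured, among 18193 genes in all. The arrays held RNA from CD4 T cells grown as follicular helper T (Tfh)-like cells, 3 arrays from SAP-deficient cells and 3 from wild-type (WT) cells. SAP, the product of Sh2d1a, is a small adaptor that binds the tails of SLAM-family receptors. All cells of both genotypes were OT-II, that is, they bore a transgenic receptor for a peptide of ovalbumin (OVA). Naive cells sorted from spleen and lymph nodes were cultured for 3.5 days with that peptide and with T cell-depleted splenocytes whose division mitomycin C had stopped, so RNA of the splenocytes can be present. The medium held IL-6 at 100 ng/ml and IL-21 at 50 ng/ml. TGF-β was blocked with 20 µg/ml of antibody and IL-4 with 10 µg/ml, and antibodies to IL-12 and IFN-γ were present too. The labels give neither the allele, age and sex of the mice nor say that the 3 arrays per genotype stem from different mice or wells, so any p-value measures only the spread between these arrays. Replicate numbers 1 to 3 follow accession order and pair nothing by the labels.

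The ER folds proteins that are to be secreted or placed in membranes. When unfolded chains accumulate, the membrane sensors IRE1 (Ern1), ATF6 and PERK (Eif2ak3) respond. IRE1 splices the Xbp1 transcript so that it encodes an active transcription factor, cleaved ATF6 enters the nucleus, and PERK slows translation and favours ATF4. XBP1 and ATF6 raise the transcription of chaperones and degradation factors, and in lymphocytes XBP1 is best known for its need in antibody-secreting plasma cells. A 3′ expression array of this kind reports the amount of a transcript, not splicing, cleavage or phosphorylation.

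The ER stress element (ERSE) of promoters is the DNA element through which ATF6 and XBP1 act together with NF-Y. Sequences were not used to list the genes, but the list was made of genes of this response. A high share of the element among them is therefore a description and no independent result. RefSeq promoter windows (GRCm38.p6, 250 bases before to 50 after the annotated start site) were matched for 26 of the 32 genes. The full element, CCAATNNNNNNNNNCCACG on either strand, lay in 9 of the 26 windows, which is 34.6%, against 37 of 27025 genes with a window, which is 0.137%. Its shorter form ERSE-II, ATTGG and CCACG with any 1 base between them, lay in 2 of the 26 and in 12 of all, 0.0444%. Both motifs end in CCACG, and no window of the 26 held both. The separate words CCAAT and CCACG, without regard to spacing or strand, lay together in 19 of the 26 windows (73.1%) and in 14.9% of all. TGACGTGG, the core bound by XBP1, was in 0 of the 26 windows and in 0.714% of all, and TGATGNAA, a form of the ATF4 composite element, was in 1 of the 26 and in 4.51% of all. A match is a description of the letters in the window, not a measured binding site.

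The 12 ERSE and ERSE-II matches are shown because they lie in genes of several roles. The search fixed their outer letters, and the bases between these differ among genes. Each is printed 5′ to 3′ on the strand of its gene with up to 8 flanking bases. Capitals mark the match, which reads as the reverse complement where the element lies on the other strand (Calr, Creld2, Derl3 and the second element of Hsp90b1).
Hspa5 (chr2:34772017-34772051, + strand): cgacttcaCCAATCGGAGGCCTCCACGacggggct
Hsp90b1 first (chr10:86705630-86705664, - strand): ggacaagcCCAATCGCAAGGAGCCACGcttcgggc
Hsp90b1 second (chr10:86705525-86705559, - strand): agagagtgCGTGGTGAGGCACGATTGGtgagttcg
Dnajc3 (chr14:118937819-118937853, + strand): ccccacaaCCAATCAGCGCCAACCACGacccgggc
Calr (chr8:84847067-84847101, - strand): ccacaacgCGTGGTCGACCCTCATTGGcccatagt
Canx (chr11:50325792-50325826, - strand): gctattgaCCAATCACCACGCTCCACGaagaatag
Pdia6 (chr12:17266483-17266517, + strand): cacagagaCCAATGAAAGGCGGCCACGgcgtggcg
Creld2 (chr15:88819512-88819546, + strand): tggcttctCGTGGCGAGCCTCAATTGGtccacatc
Derl3 (chr10:75893234-75893268, + strand): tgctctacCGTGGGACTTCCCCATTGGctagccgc
Syvn1 (chr19:6046524-6046558, + strand): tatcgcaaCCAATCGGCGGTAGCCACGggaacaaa
Herpud1, ERSE-II (chr8:94386369-94386395, + strand): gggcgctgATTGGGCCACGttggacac
Dnajb11, ERSE-II (chr16:22857844-22857870, + strand): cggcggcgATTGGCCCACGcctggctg

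All but the Dnajb11 element lay upstream of the start site. The last base of the nearest, in Syvn1, was 26 bases from it and that of the farthest, in Hsp90b1, was 194. The Dnajb11 match began 7 bases after the start, in the transcribed part. The whole upstream window is shown for 4 genes whose values are given below: Hspa5, Creld2 and Derl3, which carry a full element, and Herpud1, which carries ERSE-II. Capitals again mark the element.
Hspa5 (chr2:34771840-34772089, + strand): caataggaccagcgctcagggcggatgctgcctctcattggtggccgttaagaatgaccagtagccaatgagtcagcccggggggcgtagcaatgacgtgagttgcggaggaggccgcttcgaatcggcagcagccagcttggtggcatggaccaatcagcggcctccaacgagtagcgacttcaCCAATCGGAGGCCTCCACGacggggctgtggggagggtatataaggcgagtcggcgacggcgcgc
Creld2 (chr15:88819396-88819645, + strand): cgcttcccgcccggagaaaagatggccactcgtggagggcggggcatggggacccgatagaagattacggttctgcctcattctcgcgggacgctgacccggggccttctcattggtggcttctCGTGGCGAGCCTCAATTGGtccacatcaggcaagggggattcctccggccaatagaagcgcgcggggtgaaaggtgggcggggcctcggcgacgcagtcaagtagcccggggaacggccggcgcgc
Derl3 (chr10:75893148-75893397, + strand): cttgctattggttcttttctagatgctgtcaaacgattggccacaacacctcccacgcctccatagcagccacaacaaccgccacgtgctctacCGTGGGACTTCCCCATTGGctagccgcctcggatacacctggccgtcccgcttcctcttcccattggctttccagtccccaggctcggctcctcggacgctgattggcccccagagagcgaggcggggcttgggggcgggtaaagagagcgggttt
Herpud1 (chr8:94386179-94386428, + strand): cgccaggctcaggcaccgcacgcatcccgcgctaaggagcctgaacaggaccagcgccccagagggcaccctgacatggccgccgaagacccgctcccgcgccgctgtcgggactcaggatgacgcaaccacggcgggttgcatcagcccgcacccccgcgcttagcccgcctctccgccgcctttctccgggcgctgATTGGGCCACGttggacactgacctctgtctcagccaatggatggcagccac

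**Figure D1:**
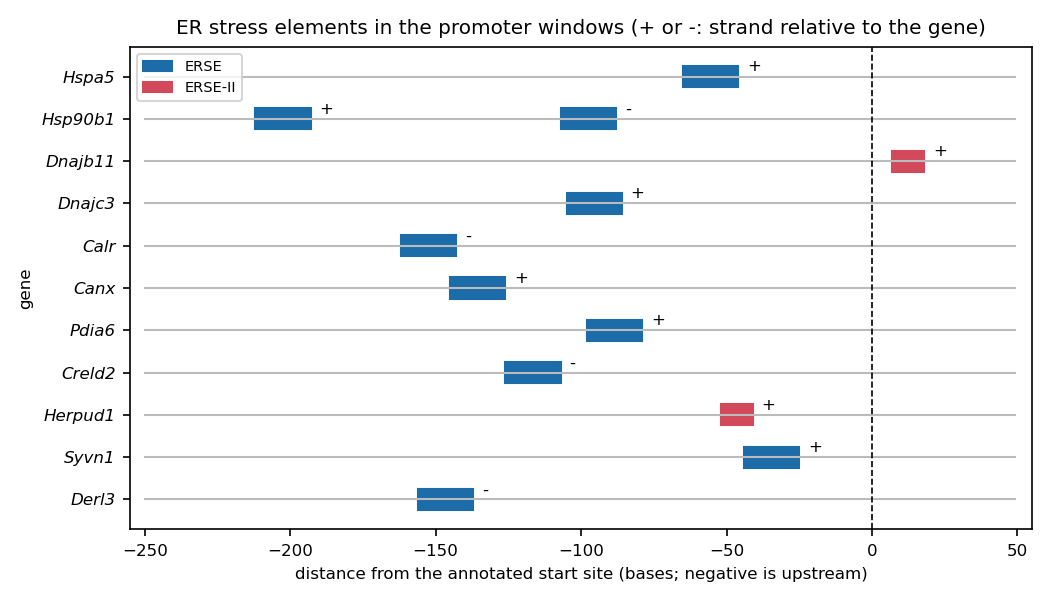
Position of each ERSE (blue) and ERSE-II (red) match in the promoter windows of 11 genes, in bases from the annotated start site (dashed line at 0), with the strand relative to the gene beside it. The elements upstream end between 26 and 194 bases before the start, and that of Dnajb11 lies after it.

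The labels were checked first. Sh2d1a was at 5.47, 4.10 and 4.92 on the SAP-deficient arrays, against 9.50, 8.52 and 9.39 on the WT arrays (log2). The change was -4.31 (95% interval -5.17 to -3.45), with an adjusted p of 0.0501 over all genes (limma). T cell markers (Cd3e, Cd4 and 5 others) were bright, with list means of 11.39 to 11.76 on SAP-deficient and 11.44 to 11.76 on WT arrays. Arrays of the same replicate number resembled each other across genotypes. Over probe sets outside the 32 genes, deviations from the genotype mean correlated at 0.52, 0.73 and 0.59 for replicates 1, 2 and 3. Between arrays of opposite genotype with different numbers they correlated at -0.52 to -0.10. Subtracting the genotype mean pushes these below 0 once the others are positive. Without it, levels over all probe sets correlated at 0.996 to 0.998 for equal numbers and 0.989 to 0.994 for different ones. Xist, the RNA that silences an X chromosome, measured 12.50, 8.19 and 6.26 on SAP-deficient replicates 1 to 3, against 12.50, 8.21 and 5.81 on WT replicates.

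Levels of the ER genes followed the replicate number far more than the genotype. Both replicate 2 arrays lay above the other 4 arrays for 30 of the 32 genes, against 18.2% of all genes. Counted within each genotype, replicate 2 was the highest array in both genotypes for the same number, 30, against 21.3% of all genes. The exceptions were Atf6 and Derl1. In 21 of the 32, 65.6%, the order from high to low was replicate 2, 1, 3 in both genotypes, against 12.2% of all genes. Replicate 3 had the lowest mean of the 3 numbers for 26 genes and replicate 1 for the other 6, which were Hyou1, Dnajb9, Herpud1, Sec61b, Sec61a1 and Ssr1. These counts describe 3 pairs of arrays and were not tested, because the labels define no such groups. The genes were also listed with earlier results of these data known. Their excess over all genes is therefore a description and no independent result.

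Around each gene's own mean over 6 arrays, the median of the 32 genes was 0.17 on SAP-deficient and 0.22 on WT replicate 2, -0.20 on SAP-deficient and -0.14 on WT replicate 3, and -0.01 on SAP-deficient and -0.05 on WT replicate 1 (log2). All 32 lay above their mean on both replicate 2 arrays. On replicate 3, 0 did so in SAP-deficient and 4 in WT cells, and on replicate 1, 13 in SAP-deficient and 10 in WT cells. The replicate number held a median of 92.7% of a gene's sum of squares, against 66.9% over all genes, and genotype held a median of 2.00%, against 6.36%. The number has 3 levels and genotype 2, so their shares are not on an equal footing. Of the 32 genes, 30 had means above the 75th percentile of all genes. The part of brightness in these shares was not tested. Between the replicate numbers with the highest and lowest mean, the 32 genes spanned 0.06 (Atf6) to 1.5 (Derl3) log2 units with a median of 0.38, against a median of 0.23 over all genes.

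**Figure D2:**
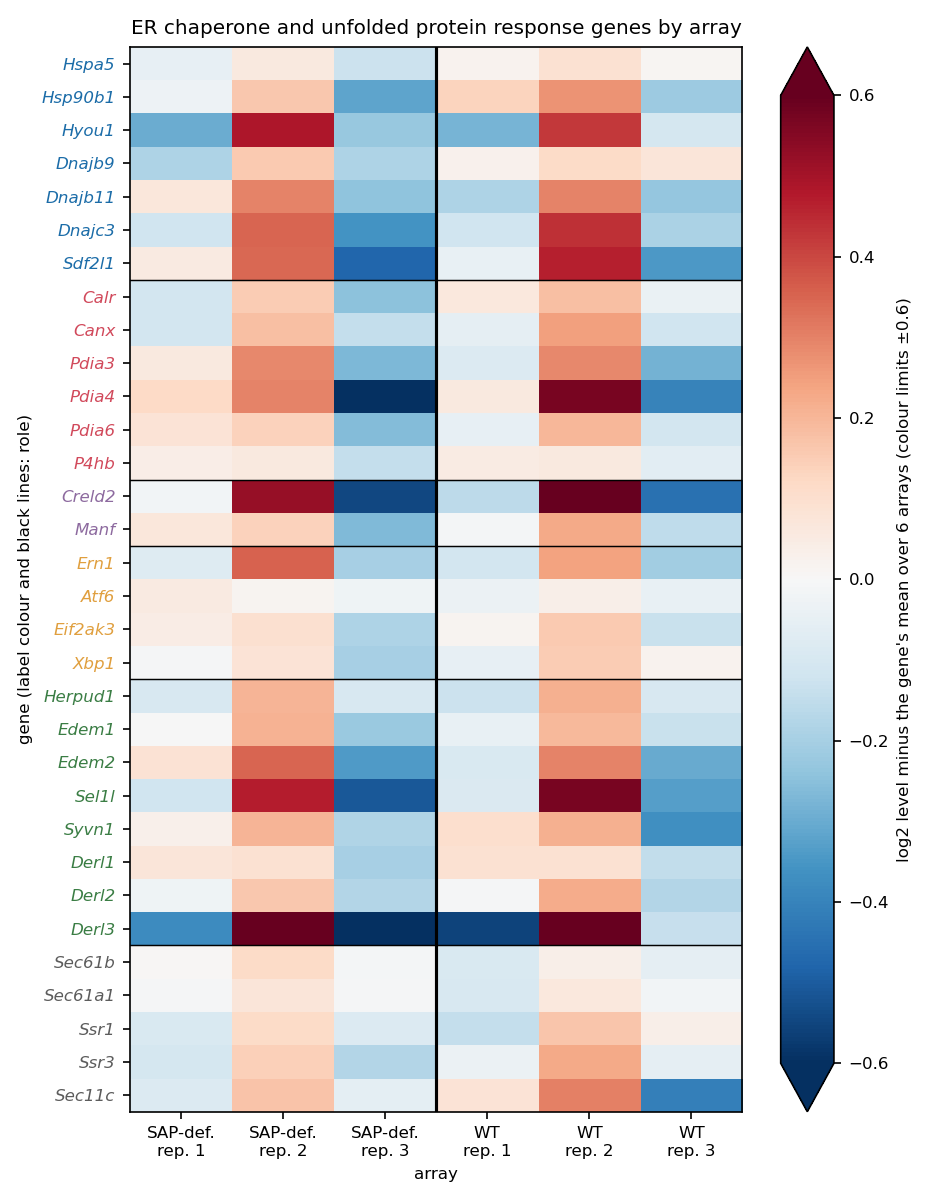
Log2 level of each of the 32 genes (rows, grouped by role with black lines between roles) on each array (columns, SAP-deficient left of WT) minus the gene's mean over the 6 arrays, in colour with limits of ±0.6. All 32 genes lie above their mean in the replicate 2 column of each genotype, though Atf6 does so only faintly. The replicate 3 columns are mostly blue.

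Luminal chaperones and co-chaperones all had their highest level in replicate 2. Hspa5, the HSP70 chaperone BiP that also holds the sensors inactive, was at 13.48, 13.59 and 13.40 on SAP-deficient replicates 1 to 3, against 13.55, 13.62 and 13.54 on the WT replicates (log2). Its values hardly moved: the genotypes overlapped, and the replicate numbers spanned 0.13. Sdf2l1, a component of ER chaperone complexes, was at 11.87, 12.16 and 11.34 in SAP-deficient cells, against 11.77, 12.28 and 11.47 in WT cells. Replicate 2 was thus high and replicate 3 low in both genotypes, with a 1.77-fold higher level in replicate 2 than in replicate 3. Dnajb9, the BiP co-chaperone ERdj4, was at 10.34, 10.68 and 10.34 in SAP-deficient cells, against 10.55, 10.64 and 10.60 in WT cells. The lowest arrays were SAP-deficient replicates 1 and 3, and the genotypes overlapped through replicate 2.

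The other 4 genes of this role moved by replicate number as well. Hyou1, the nucleotide exchange factor of BiP, was 1.54 times higher in replicate 2 than in replicate 3 and 1.67 times higher than in replicate 1. Dnajc3 (p58IPK) had ratios of 1.59 and 1.43, and Dnajb11 (ERdj3) of 1.45 and 1.28. Hsp90b1, the HSP90 chaperone GRP94, had ratios of 1.40 and 1.12 and was lower by 0.16, 0.11 and 0.10 in SAP-deficient cells at the 3 numbers. Between genotypes 6 of the 7 genes were lower and 1 higher in SAP-deficient cells, with changes from -0.14 to 0.08 that all had intervals across 0.

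Lectin chaperones and disulfide isomerases showed the order 2, 1, 3 in both genotypes for all 6 genes. Calr encodes calreticulin, which binds glycoproteins and calcium in the ER. It was at 12.52, 12.78 and 12.38 on SAP-deficient replicates 1 to 3, against 12.69, 12.81 and 12.59 on the WT replicates. Every replicate was lower in SAP-deficient cells than in the WT replicate of the same number, though the genotypes overlapped, and the change was -0.13 ± 0.10 (SE, 95% interval -0.38 to 0.11). Pdia4, the isomerase ERp72, was at 10.83, 11.01 and 10.07 in SAP-deficient cells, against 10.77, 11.28 and 10.31 in WT cells. The low arrays were replicate 3 of both genotypes, 1.93-fold under replicate 2, and the genotype change of -0.15 ± 0.29 was small beside that spread. Pdia3, the isomerase ERp57 that works with calreticulin and calnexin, was 1.49 times higher in replicate 2 than in replicate 3, Pdia6 1.28 times, the membrane-bound lectin chaperone gene Canx 1.27 times and P4hb, protein disulfide isomerase itself, 1.12 times.

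Both secreted stress proteins had the same order. Creld2, an ER-resident stress protein of which part is secreted, was at 11.62, 12.16 and 11.09 in SAP-deficient cells, against 11.48, 12.29 and 11.19 in WT cells. Replicate 2 of either genotype exceeded every other array, and the fold over replicate 3 was 2.12. Genotype held 0.113% of its sum of squares and the replicate number 98.1%. Manf, a trophic factor released on ER calcium loss, was at 13.03, 13.10 and 12.70 in SAP-deficient cells, against 12.95, 13.19 and 12.81 in WT cells, with replicate 3 low in both.

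**Figure D3:**
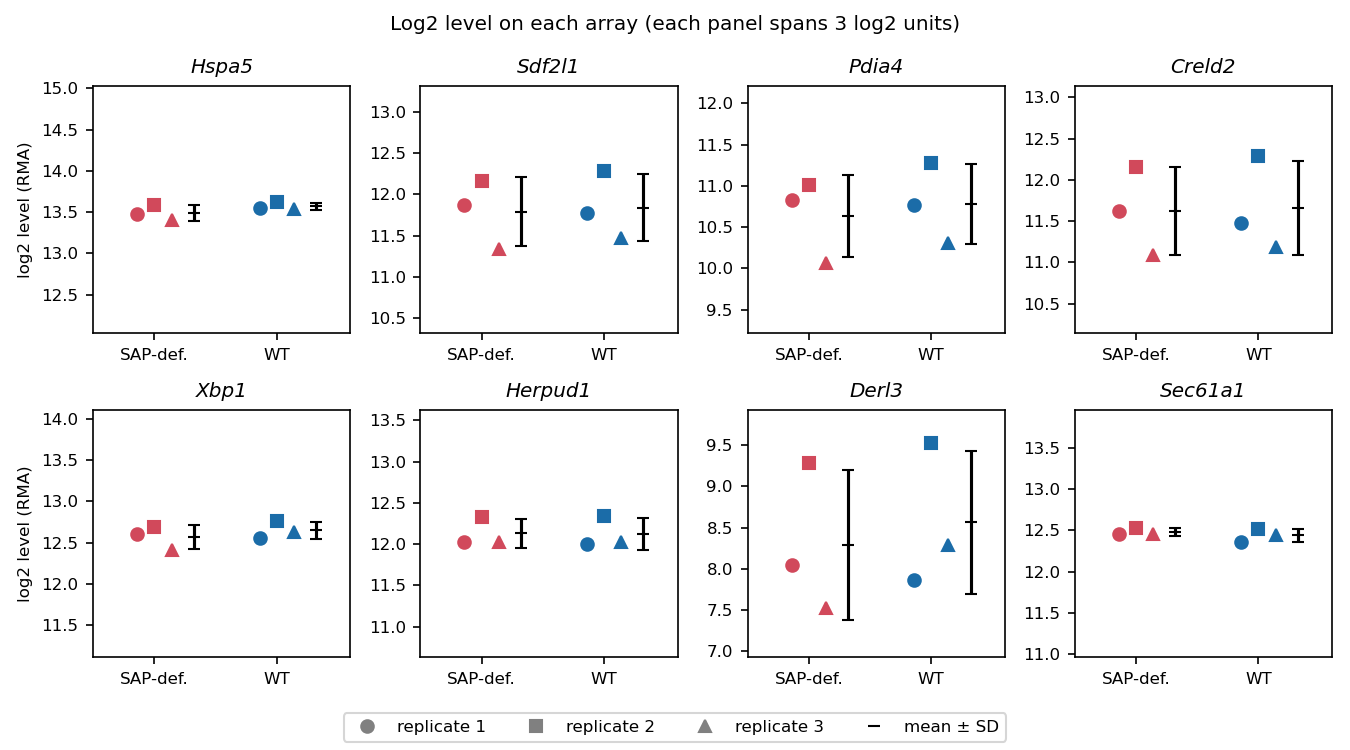
Log2 level of 8 of the genes on each array, SAP-deficient (red) left of WT (blue), with circles, squares and triangles for replicates 1, 2 and 3 and black bars for the mean ± SD of 3 arrays. Each panel spans 3 log2 units around the gene's mean, and the squares are the highest points of both genotypes in all 8 panels.

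Among the sensors and their factor, Ern1 followed the replicate number as the chaperones did, while the Atf6 probe set used here was nearly flat. Ern1 was at 8.54, 8.97 and 8.42 on SAP-deficient replicates 1 to 3, against 8.51, 8.86 and 8.41 on the WT replicates, 1.41-fold higher in replicate 2 than in replicate 3. Atf6 was at 9.42, 9.38 and 9.34 in SAP-deficient cells, against 9.33, 9.40 and 9.32 in WT cells, a spread of 0.06 between replicate numbers. Eif2ak3 was at 9.34, 9.39 and 9.11 in SAP-deficient cells, against 9.31, 9.45 and 9.16 in WT cells. For this PERK gene replicate 3 was the low array in both genotypes. Xbp1, the factor that IRE1 activates by splicing, was at 12.60, 12.69 and 12.41 in SAP-deficient cells, against 12.56, 12.76 and 12.63 in WT cells. Its widest difference between genotypes at 1 number was -0.23, in replicate 3, and its change of -0.09 had an interval of -0.28 to 0.11.

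Degradation factors included the gene with the widest spread. Derl3, a derlin that takes part in moving misfolded proteins out of the ER, was at 8.05, 9.29 and 7.53 on SAP-deficient replicates 1 to 3, against 7.87, 9.53 and 8.29 on the WT replicates. Replicate 2 stood far above the rest in both genotypes, 2.83-fold over replicate 3 and 2.73-fold over replicate 1. SAP-deficient replicate 3 was the lowest of all 6 arrays, 0.76 under WT replicate 3, whereas SAP-deficient replicate 1 was 0.18 above WT replicate 1. The genotype change of -0.27 had the widest interval of the 32 genes, -1.47 to 0.93, and -0.60 to 0.06 with matched arrays as a block. Leaving out single arrays gave -0.77 (without SAP-deficient replicate 2) to 0.21 (without WT replicate 2), and 0.11 without SAP-deficient replicate 3. Herpud1, a ubiquitin-like membrane protein of the degradation complex, was at 12.03, 12.33 and 12.03 in SAP-deficient cells, against 12.00, 12.34 and 12.03 in WT cells. The genotypes were almost superimposed, with 99.5% of the sum of squares between replicate numbers, the highest share among the 32 genes.

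Sel1l and Syvn1, which together form the HRD1 ubiquitin ligase complex of the ER membrane, were 1.92 and 1.39 times higher in replicate 2 than in replicate 3. Edem2 and Edem1, which trim mannose from misfolded glycoproteins to mark them for degradation, had ratios of 1.56 and 1.30. The other derlin genes, Derl2 and Derl1, were at 1.29 and 1.20. In Derl1 replicates 1 and 2 could hardly be told apart, at 11.58 and 11.60 in SAP-deficient and both at 11.60 in WT cells, with replicate 3 at 11.31 in SAP-deficient and 11.36 in WT cells. Of the 8 degradation genes, 5 were lower and 3 higher in SAP-deficient cells.

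Among the 5 translocation genes 3 had their lowest mean in replicate 1, and the spread between replicate numbers was 0.12 to 0.47. Sec61a1, the pore-forming subunit of the channel through which new chains enter the ER, was at 12.45, 12.53 and 12.45 in SAP-deficient cells, against 12.36, 12.52 and 12.44 in WT cells. Sec61b, a further subunit, was higher in SAP-deficient cells by 0.10, 0.07 and 0.04 at the 3 numbers, with a change of 0.07 (95% interval -0.08 to 0.22). Ssr3, a subunit of the translocon-associated complex, was at 11.82, 12.07 and 11.75 in SAP-deficient cells, against 11.89, 12.15 and 11.87 in WT cells, and so was lower at each number, by 0.07, 0.08 and 0.12. Its partner Ssr1 had its lowest mean over both genotypes in replicate 1, as did both Sec61 genes. In SAP-deficient cells alone, replicates 1 and 3 of these genes hardly differed, and Sec61b was slightly lower in replicate 3. Sec11c, a catalytic subunit of the signal peptidase, was at 10.79, 11.04 and 10.81 in SAP-deficient cells, against 10.95, 11.17 and 10.46 in WT cells, with WT replicate 3 the low array.

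**Figure D4:**
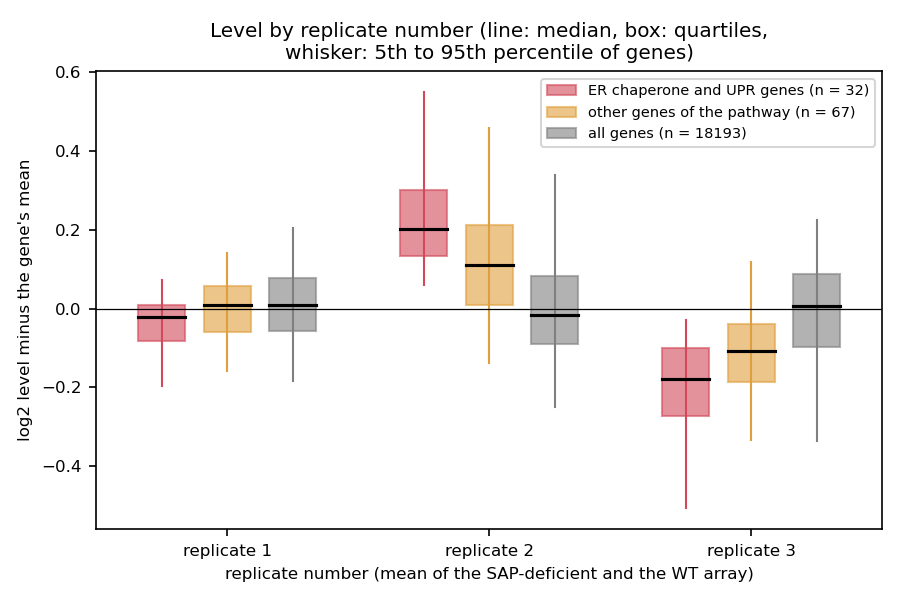
Log2 level at each replicate number (mean of the SAP-deficient and the WT array) minus the gene's mean, for the 32 ER genes (red), 67 other genes of the pathway (orange) and all 18193 genes (grey), with the median as a line, quartiles as a box and the 5th to 95th percentile as a whisker. Medians of the ER genes are -0.02, 0.20 and -0.18 at replicates 1, 2 and 3, and those of all genes lie near 0.

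Genes with and without an ERSE or ERSE-II shared this pattern. The 11 genes with either element were higher in replicate 2 than in replicate 3 by a median of 0.48 log2 units (0.13 to 1.5), the 15 with a window but neither element by 0.37 (0.11 to 0.95), and the 6 without a window by 0.33 (0.06 to 0.62). The ranges overlapped widely. Replicate 2 was the highest array of both genotypes for all 11, all 15 and 4 of the 6.

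Between genotypes no gene of the group passed the test. Limma called 0 of the 32 genes at an adjusted p under 0.05, and 0.0% of all genes, and every one of the 32 had an adjusted p of 1.00. At an unadjusted p under 0.05 it found 0 of the 32, against 1.31% of all genes. SAP-deficient and WT arrays overlapped for all 32, whereas 5.32% of all genes showed no overlap. The fit on genotype alone counts the spread between replicate numbers as error, and that spread can also make the genotypes overlap. Even Sh2d1a, with a change of -4.31, had an adjusted p of 0.0501 in this fit (limma). The absence of calls thus does not show that the genotypes were equal. The mean was lower in SAP-deficient cells for 22 of the 32 genes and higher for 10, with a median change of -0.03, while 46.7% of all genes were lower and their median was 0.01. The intervals were narrow for Hspa5 (-0.21 to 0.05) and Sec61a1 (-0.10 to 0.18), and wider for Creld2 (-0.78 to 0.72) and Pdia4 (-0.82 to 0.53). The direction of the median depended on single arrays. It was 0.07 without SAP-deficient replicate 3, with 26 of 32 genes higher, and 0.08 without WT replicate 2, with 25 higher, whereas leaving out SAP-deficient replicate 2 gave -0.12 and leaving out WT replicate 3 gave -0.10, with 3 higher each time. Leaving out 1 array unbalances the replicate numbers, so the differences between numbers enter these values.

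Set side by side at equal replicate numbers, the median difference was 0.03 at replicate 1, -0.04 at replicate 2 and -0.09 at replicate 3, and 14, 23 and 25 of the 32 genes were lower in SAP-deficient cells. At all 3 numbers 9 genes were lower, which is 28.1% of the 32 against 13.1% of all genes: Hspa5, Hsp90b1, Dnajc3, Calr, Canx, P4hb, Sel1l, Derl2 and Ssr3. Another 3 were higher at all 3 numbers, 9.38% against 15.6%: Ern1, Sec61b and Sec61a1. With arrays matched by their likeness as a block, which joined equal numbers, 3 genes had an unadjusted p under 0.05, against 6.1% of all genes, and all 3 were lower: Hspa5, Hsp90b1 and Calr. The lower genes alone were 2.61% of all genes. Their adjusted p-values over all genes were 0.814, 0.726 and 0.733 (limma), and the fit called 0 of the 32 and 0.0055% of all genes, Sh2d1a alone.

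**Figure D5:**
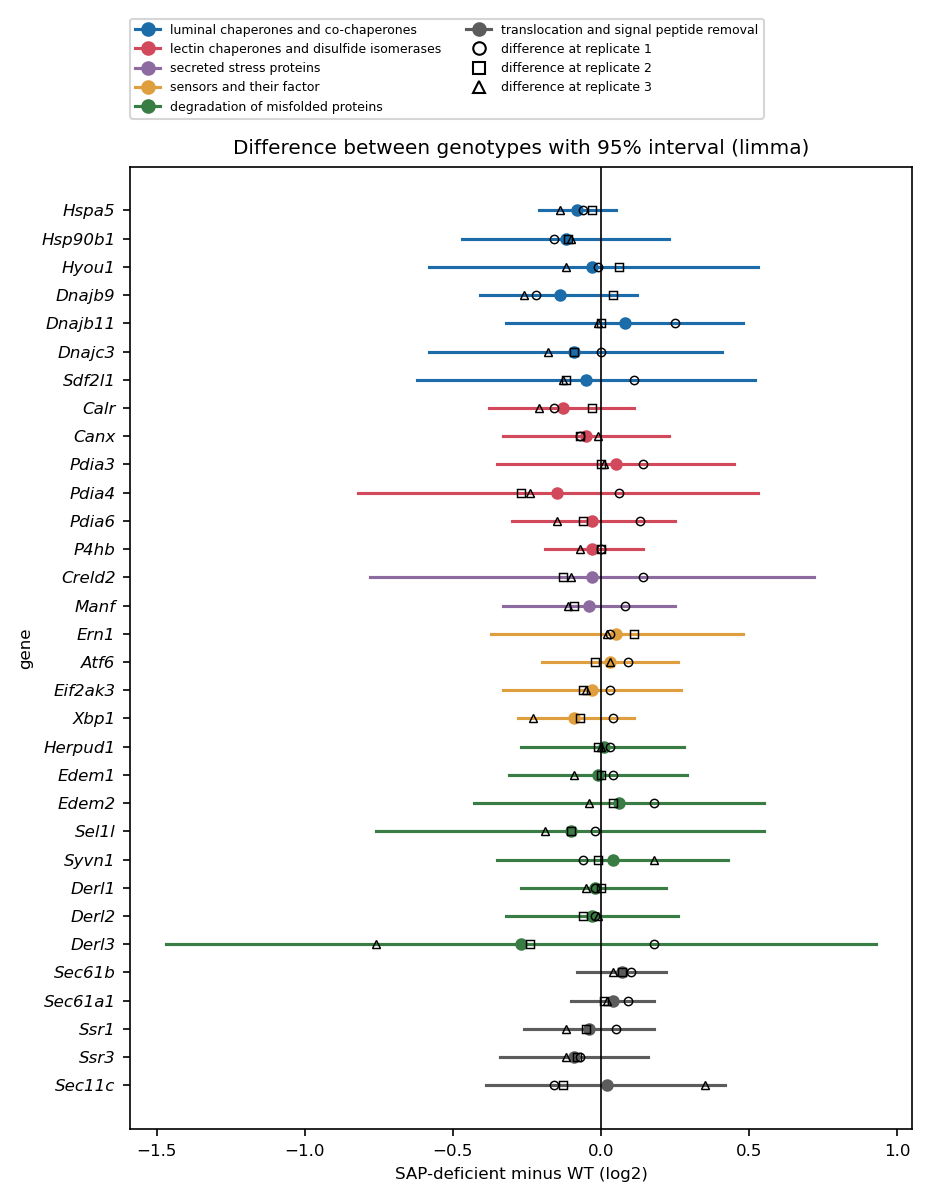
Difference of SAP-deficient minus WT cells (log2) for each gene, with the 95% interval of the limma fit (coloured line and filled point, colour by role) and the difference at each replicate number (open circle, square and triangle for 1, 2 and 3). All 32 intervals include 0, and the open symbols mostly lie within 0.3 of 0 apart from Derl3 and Sec11c in replicate 3.

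Of the 32 genes, 24 had more than 1 probe set. Their other 49 probe sets had changes of -0.23 to 0.13, 30 of them below 0, and 0 had an unadjusted p under 0.05 in limma. Replicate 2 had the highest mean of the 3 numbers in 36 of the 49. The probe sets that differed included a dimmer one of Hspa5, which was at 9.20, 9.28 and 9.49 in SAP-deficient and 9.33, 9.37 and 9.51 in WT cells and so was highest in replicate 3, and a pair of Sec61a1 with the same high replicate. A second probe set of Atf6, almost as bright at a mean of 9.32, was at 9.38, 9.40 and 9.10 in SAP-deficient cells, against 9.30, 9.50 and 9.27 in WT cells, and so was highest in replicate 2 of both genotypes. A second probe set of Ern1, at a mean of 7.06, was flat, with a spread of 0.05 between replicate numbers. The second probe sets of Xbp1 and Canx, at means of 12.43 and 11.43, were highest in replicate 2.

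Other genes of the pathway, 67 measured, shared the replicate pattern in part. Limma called 0 of them, and 0 had an unadjusted p under 0.05. Of the 67, 26 were lower and 41 higher in SAP-deficient cells, and the median change was 0.02. Both replicate 2 arrays lay above the other 4 for 33 of the 67, against 18.2% of all genes. By set, this held for 10 of the 15 genes of oxidative folding and other folding steps. It held for 3 of 10 of glycosylation and quality control and 5 of 11 of degradation. It also held for 8 of 17 of translocation, 3 of 6 other factors and proteases, and 4 of 8 of the PERK-ATF4 arm. The higher genes with the smallest p-values were Dad1, a subunit of the oligosaccharyltransferase, at 0.10 ± 0.06 (SE), and Sil1, an exchange factor of BiP, at 0.12 ± 0.13. The lower ones were Sesn2, a stress-induced sestrin, at -0.22 ± 0.15, and Chac1, a glutathione-degrading target of ATF4, at -0.19 ± 0.13. All 4 had an adjusted p of 1.00 (limma), and only Dad1 of the 67 had no overlap between genotypes.

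The PERK-ATF4 arm did not follow a single replicate. Of its 8 genes 7 were lower in SAP-deficient cells, against 46.7% of all genes, with a median change of -0.14, and 5 were lower at all 3 numbers, against 13.1%. Ddit3, the factor CHOP, chosen here after its values were seen, was at 10.44, 11.19 and 10.44 in SAP-deficient cells, against 10.49, 11.45 and 10.83 in WT cells, with replicate 2 high as for the chaperones. Sesn2, in contrast, was at 9.06, 8.75 and 8.89 in SAP-deficient cells, against 9.08, 8.91 and 9.38 in WT cells, with replicate 2 the low array in both genotypes. With the matched arrays as a block 4 of the 8 were lower at an unadjusted p under 0.05, against 2.61% of all genes, and the smallest adjusted p was 0.722 (limma). The set of oxidative folding, which also held genes of other folding steps such as Sil1, Ppib and Fkbp11, ran the other way. Of its 15 genes 13 were higher in SAP-deficient cells, with a median change of 0.04, while 46.7% of all genes were lower. The disulfide isomerases among the 32 genes did not all share this direction. Pdia4 was at -0.15, Pdia6 and P4hb at -0.03 and Pdia3 at 0.05. In the blocked fit 2 of the 15 were higher at an unadjusted p under 0.05, against 3.49% of all genes. They were the disulfide-forming oxidases Ero1a and Ero1b, with changes of 0.11 and 0.16 and blocked adjusted p-values of 0.763 and 0.814 (limma). No test compared these sets with each other.

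Markers of other cells were set beside the replicate pattern. The 6 plasma cell markers were chosen because such cells are rich in ER chaperones. Of these, 2 had their highest mean at replicate 2, 33.3% against 31.9% of all genes. Sdc1, the surface proteoglycan syndecan-1, was at 7.92, 8.06 and 7.24 on SAP-deficient and 7.55, 7.87 and 7.02 on WT replicates 1 to 3, and Txndc5, itself an ER isomerase, was also highest in replicate 2 of both genotypes. Jchain, the joining chain of secreted antibodies, was at 6.93, 6.0 and 5.44 on SAP-deficient and 6.93, 5.61 and 5.30 on WT replicates 1 to 3, so it was highest in replicate 1, as were Ighm and Mzb1. Tnfrsf17 lay between 4.11 and 4.54 on all arrays. Summed as list means, plasma cell markers ran from 7.40 to 7.94 in SAP-deficient and from 7.33 to 7.91 in WT cells, B cell markers from 5.63 to 5.88 in SAP-deficient and from 5.80 to 6.09 in WT cells. Macrophage and dendritic cell markers ran from 6.59 to 6.96 in SAP-deficient and from 6.68 to 6.95 in WT cells. Both replicate 2 arrays lay above the other 4 for 0 of 7 B cell, 1 of 6 plasma cell and 1 of 8 macrophage and dendritic cell markers. The share over all genes was 18.2%, and the plasma cell marker counted was Txndc5, which is also in the pathway list. Of 7 T cell markers 0 were highest and 5 lowest at replicate 2, with a median deviation of -0.16. MHC class II genes, 5 in all, had list means of 8.48, 8.23 and 7.90 in SAP-deficient cells, against 8.58, 8.27 and 8.41 in WT cells, and 0 were highest at replicate 2. In bulk RNA, a different number of cells of a type and a different amount of RNA per cell cannot be told apart.

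Heat shock genes whose products work outside the ER and proliferation genes shared the pattern in part. By the mean of both genotypes, 4 of 8 heat shock and 3 of 6 cell-cycle genes were highest at replicate 2, against 31.9% of all genes. Replicate 3 was lowest for 3 of the 8 and 5 of the 6, against 35.1% of all genes. Of 8 such heat shock genes, of which Hspe1 and Hspd1 encode mitochondrial chaperonins, only Hspe1 had both replicate 2 arrays above the other 4, and list means ran from 10.78 to 10.88 in SAP-deficient and from 10.84 to 10.95 in WT cells. Against a share of 18.2% over all genes, 0 of the 6 cell-cycle genes did so. Their list mean was 10.44, 10.45 and 10.54 in SAP-deficient cells, against 10.57, 10.55 and 9.87 in WT cells, so WT replicate 3 was the low array, while the ER genes had list means of 11.33, 11.59 and 11.11 in SAP-deficient cells, against 11.31, 11.64 and 11.20 in WT cells. Of 4 genes induced by cell handling only Jun had both replicate 2 arrays above the other 4, while Fos and Egr1 were lowest there. Eif2s3y, which lies on the Y chromosome, measured 2.91, 9.98 and 9.76 on SAP-deficient replicates 1 to 3, against 3.54, 9.96 and 9.80 on WT replicates. Replicate 1 thus stood apart from replicates 2 and 3, as it did for Kdm5d and Uty. In both genotypes replicate 1 combined the highest Xist with the lowest levels of these Y-linked genes. The sex of the cells that gave the RNA thus differed between replicate numbers, though the labels do not give it. Of the 4 sex-linked genes measured, 3 had both replicate 2 arrays above the other 4, against 18.2% of all genes. The other, Xist, was highest in replicate 1. Most ER genes were lowest in replicate 3. The part of these other differences between arrays in the levels of the ER genes was not tested.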

How the data were processed

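Per the submitters' processing notes, the authors processed the 6 arrays (Affymetrix 3′ expression arrays, 500 ng of total RNA each per the labels' protocols) with Affymetrix Expression Console and RMA, and the deposited values are log2 levels of 45101 probe sets, 1 column per array. For versions and settings, nothing is given in the sources used here. RMA equalises the arrays' distributions, which hides any change in total RNA, and compresses differences of dim probe sets; the number of arrays limits the precision. Probe sets differ in brightness for a given amount of RNA, so levels were compared between arrays, not between genes.

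Of the probe sets, 64 controls were left out and 45037 fitted with limma (version 3.58.1, R version 4.3.3, lmFit on genotype, eBayes with trend). The fit was tested on simulated data with independent errors for each array and no differences between replicate numbers. That test therefore does not cover the replicate pattern of these data. By the platform annotation 34945 probe sets had a single gene (34741 of them with a RefSeq match, whose symbol was used), 932 had several genes and 9160 had no gene listed. P-values were adjusted (Benjamini-Hochberg) over the 18193 genes, each by its brightest single-gene probe set. Changes are SAP-deficient minus WT.

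The 32 genes, the other lists and the tests were chosen with earlier results of these data known. Values in every array are given for the gene of each role with the highest mean, the largest change or the widest range and for the sensors; of the other pathway genes the 2 with the smallest p in each direction are named. Some genes of the marker and pathway lists are not reported here. Motifs were searched in the RefSeq promoter windows; the protein features planned were not analysed here.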

Additional observations from a re-analysis of the deposited data

How the results depend on the processing

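No ER gene was called under any of the 16 alternatives (limma, adjusted p), and the number at an unadjusted p under 0.05 was 0 in all but 2 of them: it was 3 with the replicate block of matched arrays, and 0 to 3 with single arrays left out (3 without SAP-deficient replicate 2). The block rests on the likeness of the arrays, not on the labels, and changed no call. The median change was -0.07 to -0.02 under the other settings and -0.12 to 0.08 with single arrays left out. Counted within each genotype, replicate 2 was the highest array in both genotypes for 29 to 31 genes under other probe set choices and scalings.

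Signs of small changes depended on the settings; the cause was not tested. With array weights Pdia3 was at -0.01, Ern1 at -0.01, Herpud1 at -0.03, Syvn1 at -0.05 and Sec11c at -0.09. With the mean of a gene's probe sets Canx was at 0.03, Pdia3 at -0.03, Pdia6 at 0.01, Atf6 at -0.02, Edem1 at 0.00275, Syvn1 at -0.01, Derl2 at 0.02 and Sec61a1 at -0.02, and Canx was at 0.03 without cross-hybridising probe set types. With single arrays left out, 49 of 192 values over 25 genes changed sign: Canx -0.15 to 0.06, Creld2 -0.30 to 0.29, Derl1 -0.10 to 0.07, Derl2 -0.12 to 0.08, Derl3 -0.77 to 0.21, Dnajb11 -0.05 to 0.25, Dnajc3 -0.29 to 0.11, Edem1 -0.12 to 0.09, Edem2 -0.09 to 0.25, Eif2ak3 -0.10 to 0.06, Ern1 -0.11 to 0.19, Herpud1 -0.09 to 0.11, Hsp90b1 -0.26 to 0.01, Hyou1 -0.28 to 0.18, Manf -0.13 to 0.09, P4hb -0.07 to 0.03, Pdia3 -0.09 to 0.21, Pdia4 -0.39 to 0.13, Pdia6 -0.10 to 0.10, Sdf2l1 -0.24 to 0.18, Sec11c -0.18 to 0.18, Sec61a1 -0.000517 to 0.08, Sel1l -0.36 to 0.16, Ssr1 -0.12 to 0.04 and Syvn1 -0.13 to 0.15. All 32 genes had means above the median gene.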
